A study of Mus musculus with 20 samples.

Results

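The left ventricle of mice given folic acid and doxorubicin (FA-DOXO) was compared with that of mice given neither (sham), which asks how far a DOXO-treated heart under FA still differed from an untreated one. The samples were picked by their labels, 6 FA-DOXO and 4 sham arrays of the 20 arrays in the series, and all 34760 transcript clusters were described. A transcript cluster is the array's summary of the probes over the exons of a gene, and 21640 clusters carry 1 gene symbol, 1321 carry several and 11799 are unnamed here. All mice were C57BL/6 males of 2 months, with 1 array per mouse. Sham mice received saline and a placebo diet, and FA-DOXO mice received DOXO once into the peritoneum at 20 mg/kg and FA at 10 mg per day. The diets ran from 7 days before the injection to day 10, when the ventricle was taken, so only mice alive at day 10 are represented. The series also holds 4 FA-sham mice (FA and saline) and 6 DOXO mice (placebo and DOXO), which were used in the same fits. Because FA-DOXO and sham mice differ in both treatments, this comparison alone cannot divide a difference between DOXO and FA.

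DOXO is an anthracycline that traps topoisomerase II on DNA and feeds redox cycling with iron, and heart muscle, dense in mitochondria and poor in antioxidant enzymes, is its best known site of toxicity. Stressed ventricle is known to induce metallothioneins, p53 targets and the fetal myosin heavy chain. FA is the synthetic form of folate, the carrier of one-carbon units, and its reduced forms help to keep tetrahydrobiopterin, the cofactor of the nitric oxide synthases, in its active state.

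Values are the deposited log2 signals. The arrays differed in how far these signals spread, and this spread was uneven over the groups compared. The standard deviation over all clusters of an array, here the array SD, was 1.19, 1.50, 1.43 and 0.941 on sham arrays 1 to 4, and 0.863 to 1.34 with a median between 0.958 and 0.987 on the 6 FA-DOXO arrays. Arrays with an SD above 1.1 are called wide here and the others narrow. Wide arrays were those of 3 of 4 sham mice (not mouse 4) and of 2 of 6 FA-DOXO mice (mice 5 and 6). The mean array SD of the 4 sham mice was 1.27 ± 0.253 (SD) and that of the 6 FA-DOXO mice 1.04 ± 0.185 (SD), a difference of -0.229 (two-sided exact permutation test, p = 0.133, where 0.00952 is the smallest p possible). Leaving out 1 mouse moved the difference between -0.150 without sham mouse 2 and -0.337 without sham mouse 4. Transcripts of heart muscle follow this spread. The tissue label calls for cardiomyocyte markers, and the mean signal of 12 of them was above the array medians of 6.23 to 6.63 on every sham and FA-DOXO array. It lay between 9.65 and 12.9 on sham and between 8.38 and 12.3 on FA-DOXO arrays. Single markers came near the median on narrow arrays. Myh6 was at 6.90 on FA-DOXO array 2, whose median was 6.63, and at 12.50 on sham array 2. Each comparison is therefore given without a covariate and after adding the array SD as a covariate. That second fit compares the groups at the same spread and assumes 1 slope for all groups. The array SD was computed after treatment over the same clusters that are compared, those of heart muscle among them. Whether treatment altered the spread itself cannot be told from these arrays, so the covariate may hold part of the outcome.

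Without the covariate, 605 clusters (1.74%) passed the study's unadjusted threshold of 0.01, 445 higher (1.28%) and 160 lower (0.46%) in FA-DOXO, and 1 cluster (0.00288%) passed a Benjamini-Hochberg adjusted p of 0.05 in limma. A cluster past the unadjusted threshold is called higher or lower below. Of the 445 higher calls, 325 had a mean signal under that of the median cluster, 6.57, and 28 were among the 1035 olfactory receptor clusters. The direction of these calls depended on the scaling of the arrays. Higher calls made up 73.6% as deposited, 39.1% after quantile normalization, 26.8% after median centring and 21.0% with each array scaled to an SD of 1. As deposited, the median cluster was higher in FA-DOXO by 0.14 on the log2 scale, and after these scalings it was at 0.01, -0.04 and -0.07. With the array SD in the fit, 1235 clusters (3.55%) were called, 1085 higher (3.12%) and 150 lower (0.432%), and 46 (0.132%) passed the adjusted threshold, 44 of them higher. The median cluster was then at 0.05. Both fits called 318 clusters, 247 higher and 71 lower, and none in opposite directions. Of the 1085 higher calls with the array SD, 319 had a mean signal under that of the median cluster. Gene lists of higher signal are thus more open to such calls, and the list counts below stand beside these shares.

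The calls gained with the covariate lay on clusters whose signal rose with the array SD. Of the 46 adjusted calls, 44 had a positive slope on the array SD, against 13361 of all 34760 clusters, and 34 were below sham before the covariate entered. Among the 44 higher ones, FA-DOXO exceeded sham in 42 both on the wide arrays alone (2 mice against 3) and on the narrow arrays alone (4 against 1). The same held for 11563 of all 34760 clusters, and since these arrays also chose the 44, the count is a description only. The 35 adjusted calls with 1 gene symbol were all higher in FA-DOXO. They rest on which spread is held equal. With the SD over the lower-signal clusters as the covariate, which ran from 0.550 to 0.679 and did not follow the array SD, 1 adjusted call was left, and Des, Actn2, Cdh2, Pkp2, Glul, Clu, Ephx1, Cp, Gstm2, Sqstm1 and Gabarapl1, among the genes described below, were below sham and not called. The number of calls also rested on single mice. Without the covariate it ran from 163 without sham mouse 2 to 5234 without sham mouse 4, the 1 sham mouse with a narrow array. The adjusted calls with the array SD ran from 8 without FA-DOXO mouse 5 to 446 without sham mouse 4.

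**Figure D1:**
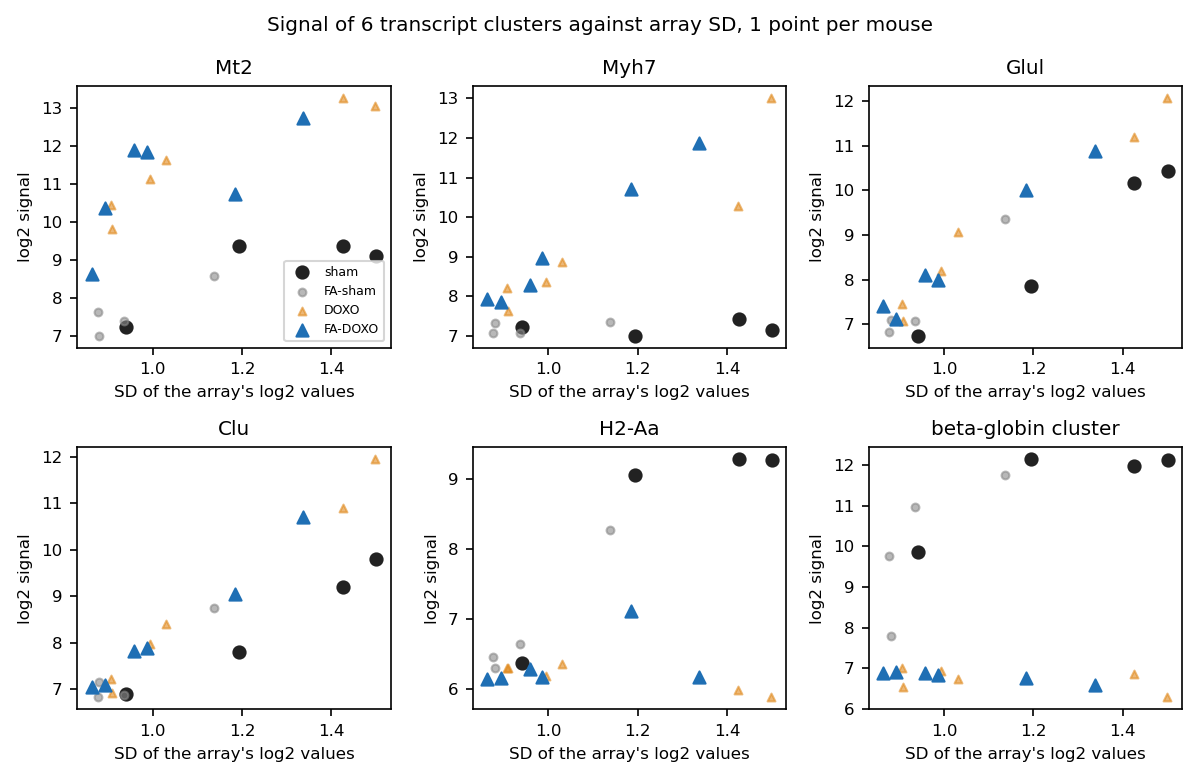
Log2 signal of 6 transcript clusters against the array SD, 1 point per mouse, with sham as black circles, FA-DOXO as blue triangles and the other groups as smaller points. Mt2, Glul and Clu lay above sham at the same array SD in FA-DOXO mice, Myh7 was flat in sham and climbed with the array SD in FA-DOXO, and H2-Aa and the beta-globin cluster stayed low in FA-DOXO on wide and narrow arrays alike, apart from H2-Aa in FA-DOXO mouse 6.

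The adult globins, the oxygen carriers of red cells, were lower in FA-DOXO. A cluster annotated to Hbb-bt, Hbb-bs, Hbb-b2 and Hbb-b1, none of which it can single out, had log2 signals of 12.14, 12.13, 11.96 and 9.86 in sham and 6.59 to 6.91 with a median of 6.85 in FA-DOXO mice. Every FA-DOXO mouse lay below every sham mouse. The cluster fell by 4.72 on the log2 scale without the covariate (SE 0.55, limma adjusted p = 0.00219), and with it fell by 4.44 (SE 0.57, limma adjusted p = 0.00583), a 21.7-fold lower signal. It was the only adjusted call without the covariate and kept that call when any mouse was left out of either fit. A second beta-globin cluster was lower by 1.60 (with array SD, -1.56). The pair of clusters annotated to Hba-a2 and Hba-a1, the alpha-globins, were lower by 3.43 and 3.11 without the covariate and by 2.73 and 2.51 with it. These 3 clusters had no overlap between the groups and adjusted p between 0.0602 and 0.0972 with the covariate (limma). Here and below, how many of all clusters separate the groups was not counted, so a lack of overlap is a description only. Alas2, which starts haem production in developing red cells, was lower by 0.60 and 0.67, again in all 6 FA-DOXO mice. The nearest mice of the 2 groups were at 6.15 in FA-DOXO and 6.17 in sham. Alas2 was the only 1 of 7 erythroid markers called, and the mean signal of that list was 6.38 to 6.53 in sham and 6.16 to 6.50 in FA-DOXO. On wide arrays alone the alpha-globin clusters were at -4.49 and -3.93, and on narrow arrays, with sham mouse 4 as the only control, at -0.54 and -0.67, while the first beta-globin cluster was at -5.40 and -2.99. In whole tissue, fewer cells of a type and less RNA per cell cannot be told apart, here and below.

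Metallothioneins, small cysteine-rich proteins that bind zinc and copper and scavenge radicals, were higher in FA-DOXO, Mt2 in both fits and Mt1 at the same array SD. Mt2 had log2 signals of 9.36, 9.10, 9.37 and 7.22 in sham, and from 8.64 over a median of 11.28 to 12.73 in FA-DOXO mice. In 5 of 6 FA-DOXO mice it exceeded every sham mouse, and the exception, mouse 3, had the smallest array SD of all 20 arrays. Mt2 was higher by 2.26 (SE 0.75) without the covariate, a 4.80-fold difference with a limma adjusted p of 0.335, and by 3.31 (SE 0.49, limma adjusted p = 0.0101) with it, a 9.92-fold difference. The difference was 2.45 on wide and 3.46 on narrow arrays. Without the covariate its unadjusted call was lost in 5 of 10 omissions (FA-DOXO mouse 1, 4 or 5 or sham mouse 2 or 4). Leaving out FA-DOXO mouse 5 raised the adjusted p with the covariate to 0.0556. Mt1, its neighbour on chromosome 8, overlapped with sham, from 7.92 to 10.68 in FA-DOXO against 8.61, 9.26, 9.52 and 7.94 in sham, and was higher by 1.32 with the covariate (SE 0.27, limma adjusted p = 0.0592) and at 0.23 without. Of 19 metallothionein and zinc transporter genes, these were the only 2 called with the array SD, and Mt2 the only 1 without, so 0 of the zinc transporters were called.

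The promoters of both genes are shown because the metal response element, the site of the zinc-sensing factor MTF1, is the known control of this family. The RefSeq sequences of the 300 bases around each start (GRCm38.p6, 250 before and 50 after, plus strand) were searched on both strands for the core TGCNCNC, and matches are in capitals. Mt2 is at chr8:94172368-94172667 and Mt1 at chr8:94178839-94179138.
Mt2: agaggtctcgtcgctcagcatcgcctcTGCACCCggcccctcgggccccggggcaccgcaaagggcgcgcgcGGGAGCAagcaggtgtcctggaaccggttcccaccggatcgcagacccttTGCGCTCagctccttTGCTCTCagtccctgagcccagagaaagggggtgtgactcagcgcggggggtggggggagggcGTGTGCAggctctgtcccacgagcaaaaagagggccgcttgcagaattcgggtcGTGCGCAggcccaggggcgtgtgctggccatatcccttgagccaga
Mt1: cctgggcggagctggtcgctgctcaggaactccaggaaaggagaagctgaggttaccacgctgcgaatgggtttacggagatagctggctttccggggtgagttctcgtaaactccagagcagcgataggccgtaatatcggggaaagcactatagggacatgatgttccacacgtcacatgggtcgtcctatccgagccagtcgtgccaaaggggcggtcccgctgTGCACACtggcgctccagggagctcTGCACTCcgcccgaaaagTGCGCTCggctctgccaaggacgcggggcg
The Mt2 window held 6 matches and the Mt1 window 3. Of 32851 promoters of this length, 51% held at least 1 match, 7.1% at least 3 and 0.225% at least 6. A match describes these letters and does not show a bound site.

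Heart muscle genes divided by fit. Myh7, the beta myosin heavy chain of the fetal and stressed ventricle, was at 7.01, 7.17, 7.42 and 7.24 in sham on wide and narrow arrays alike. In FA-DOXO it ranged from 7.86 over a median of 8.63 to 11.87, and all 6 mice exceeded all sham mice, the wide arrays of mice 5 and 6 with 11.87 and 10.70 most of all. Its difference was 2.06 (SE 0.87, limma adjusted p = 0.335) without the covariate, which is not a call, and 3.27 (SE 0.57, limma adjusted p = 0.0259) with it. The adjusted call was lost without FA-DOXO mouse 5 or 6 or without sham mouse 1, 2 or 3 (adjusted p up to 0.140), and the unadjusted p stayed under 0.01 in all 10 omissions. Mhrt, the noncoding RNA of the myosin heavy chain locus, moved the other way. It was at 7.21, 9.28, 8.39 and 6.95 in sham and at 6.37 to 6.75 in FA-DOXO, below every sham mouse in 6 of 6, and was lower by 1.33 without and by 0.99 with the covariate. Myh6, the adult alpha chain of the same locus, was at -1.76 (SE 1.11) and 0.10 (SE 0.34), and Actc1, cardiac actin, at -2.09 (SE 1.36) and 0.13 (SE 0.54), neither called in either fit.

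Of 33 sarcomere and Z disc genes, 0 were higher and 2 lower without the covariate (median -1.02), and 7 were higher and 0 lower with it (median 0.29, against 0.05 for all clusters). The 7 included Des (1.54, SE 0.35), the intermediate filament that ties Z discs together, Myom2 of the M band (1.33, SE 0.36), Actn2, the Z disc crosslinker (1.15, SE 0.29), and Myot (0.75, SE 0.17). Before the covariate these 4 were at -0.74, -0.35, -1.03 and -0.25 and not called. Mylk4, a myosin light chain kinase, and Lmod3, a leiomodin that nucleates actin filaments, were lower without the covariate by 1.76 and 1.44, and at -1.05 and -0.74 with it, no longer called. Mylk4 was at 7.45, 10.21, 9.81 and 6.67 in sham and at 6.40 to 7.59 in FA-DOXO, so that the 2 groups overlapped at sham mice 1 and 4. Among 14 natriuretic and fetal genes, Corin, the protease that activates atrial natriuretic peptide, was higher by 0.72 with the covariate, and so was Ankrd1 by 1.94. Nppa and Nppb, the natriuretic peptides, were at 0.53 (SE 0.46) and 0.45 (SE 0.33), and Acta1, skeletal actin, at 0.17 (SE 0.32), none of them called. Of 31 calcium handling and channel genes, 0 were called in either fit (limma), with medians of -0.76 and -0.02.

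The intercalated disc joins cardiomyocytes end to end. Of 17 of its genes, 0 were called without the covariate, when all 17 lay below sham (median -0.52), and 4 were higher with it (median 0.30). Cdh2, the N-cadherin of its adherens junctions, was at 8.11, 10.49, 10.15 and 6.58 in sham and at 6.68 to 10.26 with a median of 7.24 in FA-DOXO, and the groups overlapped fully. With the array SD it was higher by 0.87 (SE 0.12, limma adjusted p = 0.00901), at -0.93 (SE 1.03) without, and its adjusted call held in all 10 omissions. Pkp2, the plakophilin of the desmosome, was higher by 0.87 (SE 0.13, limma adjusted p = 0.0134), and Nrap, which links actin to the disc, by 0.93 (SE 0.28). Without FA-DOXO mouse 5, 2 of the 17 were higher. Adam4, a membrane protease that the study follows, was at 6.49, 6.60, 6.32 and 6.86 in sham and 6.40 to 6.84 in FA-DOXO, a difference of 0.05 (SE 0.15) without and -0.15 (SE 0.10) with the covariate. With the array SD DOXO mice lay below sham mice by 0.46 (SE 0.09), and it was higher in FA-DOXO than in DOXO mice by 0.31 (SE 0.08), both past the unadjusted threshold and neither past the adjusted one (limma adjusted p = 0.0532 and 0.839).

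Enzymes of detoxification and secreted stress proteins were among the adjusted calls with the array SD. Glul, glutamine synthetase, is measured by 2 clusters. The first was at 7.85, 10.43, 10.17 and 6.74 in sham and at 7.12 to 10.88 with a median of 8.05 in FA-DOXO. As raw signals the groups overlapped, with a difference of -0.21 (SE 1.02), and at the same array SD FA-DOXO was higher by 1.54 (SE 0.21, limma adjusted p = 0.00901). The gap was 0.96 on wide and 0.92 on narrow arrays, and the adjusted call held in all 10 omissions. The second cluster gave 1.28 (SE 0.19, limma adjusted p = 0.0101). Clu, the secreted chaperone clusterin, was higher by 1.44 (SE 0.22, limma adjusted p = 0.0116), Ephx1, the microsomal epoxide hydrolase, by 0.96 (limma adjusted p = 0.0101) and Gstm2, a glutathione transferase, by 0.98 (limma adjusted p = 0.0455), each with a difference between -0.20 and -0.13 before the covariate. Of 36 antioxidant and glutathione genes, 1 was higher without the covariate (median -0.47) and 9 were higher with it (median 0.35). Over all clusters the shares were 1.28% and 3.12%. Without FA-DOXO mouse 5 the count with it was 6. They included Gpx3, the plasma glutathione peroxidase (1.79, SE 0.49), the NRF2 targets Nqo1 (1.39, SE 0.29) and Gclm (1.02, SE 0.23), and Cat, catalase (1.14, SE 0.24). Slc7a11, the cystine importer, was called in both fits (0.62 and 0.38). It was at 5.13 to 6.16 in sham and 5.77 to 6.51 in FA-DOXO, below the array's median on every sham and FA-DOXO array. In FA-DOXO 4 of 6 mice exceeded all sham mice, those with narrow arrays. In sham it was at 5.61, 5.13 and 5.55 on the wide arrays and at 6.16 on the narrow one. Mgst1, a membrane glutathione transferase, was higher by 1.63 (SE 0.32).

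The lipocalins and lipid carriers had 5 of 15 members higher with the array SD and 1 without, Rbp4, the retinol carrier of plasma (0.22 with and 0.36 without). Apod was nearly constant in sham (7.26, 7.44, 7.51 and 7.35) and ran from 7.21 to 9.21 in FA-DOXO, above all sham mice in 4 of 6, a difference of 0.66 without and 1.41 (SE 0.32) with the covariate. Ptgds, the prostaglandin D synthase, was higher by 1.41 (SE 0.32). Among 27 acute-phase and secreted stress proteins, 0 were called without the covariate (median 0.34) and 4 were higher with it (median 0.11), 7 without sham mouse 4. Lcn2, a lipocalin that binds iron-loaded siderophores, was at 6.30, 6.40, 6.37 and 6.52 in sham and at 6.57, 6.89, 7.48, 7.84, 8.10 and 10.32 in FA-DOXO. All 6 FA-DOXO mice lay above all sham mice, mouse 3 by the least and mouse 5 by far the most. Lcn2 was higher by 2.65 (SE 0.60, limma adjusted p = 0.0795) with the covariate and at 1.47 (SE 0.87) without. Serpina3n, a serine protease inhibitor, was higher by 2.28 (SE 0.54) with the covariate, with 4 of 6 mice above all sham mice. The shared slope on the array SD was 5.18 for Lcn2, 5.27 for Serpina3n, 5.30 for Myh7 and 3.28 for Apod. In sham, Lcn2 was at 6.52 on the narrow array and at 6.30 to 6.40 on the wide ones. Myh7 and Apod hardly moved there, and Serpina3n stayed between 6.59 and 7.34. For these genes the difference with the covariate assumes a slope that the sham arrays do not show. Of the genes described below, Timp1, Ddit4 and Arntl share this limit. Their slopes were 1.55, 1.73 and 0.59. In sham each was highest on the narrow array, at 6.24, 6.93 and 6.49. Cp, the copper ferroxidase ceruloplasmin, was higher by 1.06 (SE 0.18, limma adjusted p = 0.0258), and Osmr, the oncostatin M receptor, by 0.93 (SE 0.24). The adjusted call of Cp was lost in 4 of 10 omissions. Of 22 iron genes, 3 were higher with the array SD, Lcn2 and Cp among them, and 0 without.

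**Figure D2:**
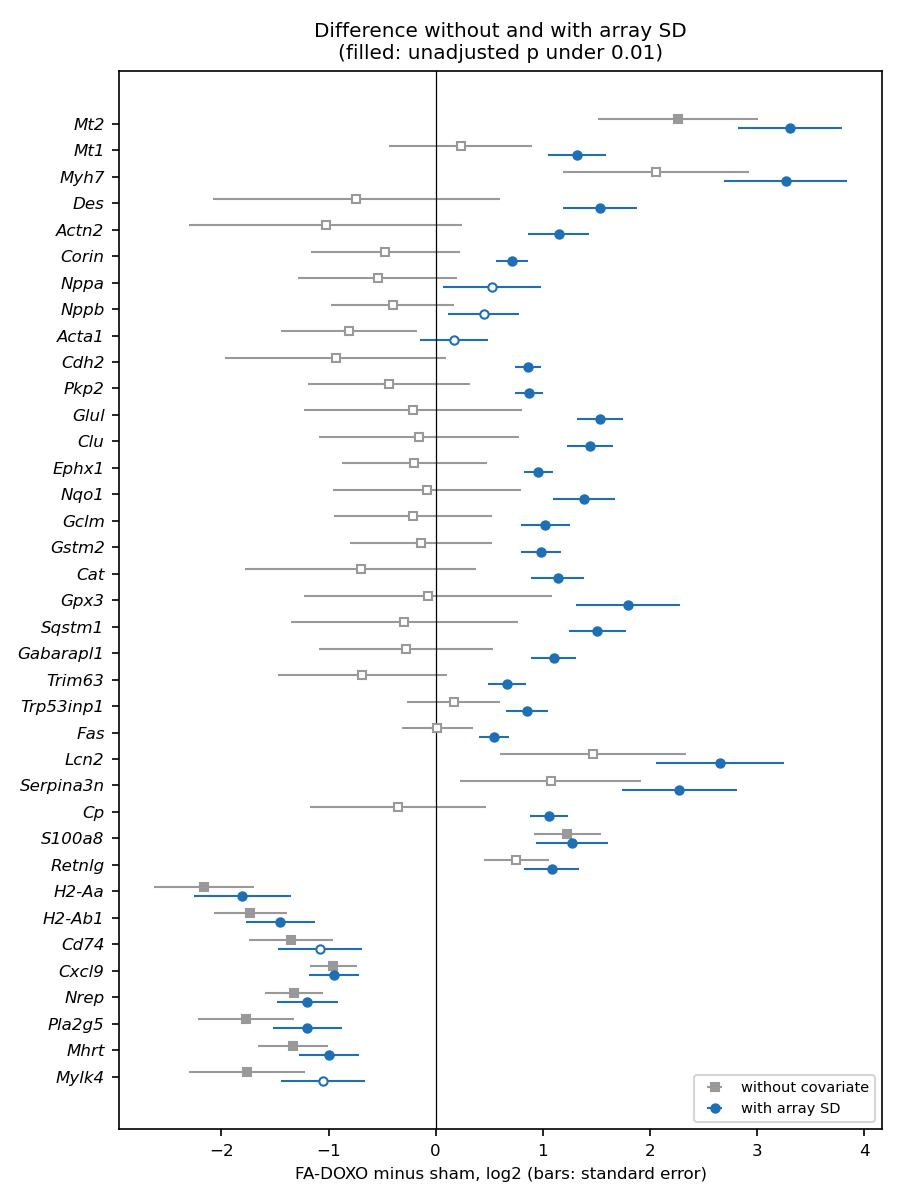
FA-DOXO minus sham on the log2 scale for named genes, with bars for the standard error, without a covariate (grey squares) and with the array SD (blue circles), and filled symbols for an unadjusted p under 0.01. Genes from Des to Trim63 lay below 0 without the covariate and above 0 with it, whereas Mt2, S100a8, H2-Aa, H2-Ab1, Cxcl9, Nrep, Pla2g5 and Mhrt were called in the same direction in both fits.

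Genes of muscle atrophy, autophagy and the lysosome showed the same dependence on the covariate. Of 28, 0 were called without it in limma (median -0.34) and 10 were higher with it (median 0.43), beside 3.12% of all clusters. Sqstm1, the p62 cargo receptor of autophagosomes, was at 8.96, 10.52, 10.39 and 7.20 in sham and 7.16 to 11.55 in FA-DOXO, and higher by 1.51 (SE 0.27, limma adjusted p = 0.0259) with the array SD. Gabarapl1 and Map1lc3b, which coat the autophagosome membrane, were higher by 1.1 (SE 0.21, limma adjusted p = 0.0478) and 1.02 (SE 0.26). Bnip3, a mitophagy receptor, was higher by 1.43 (SE 0.34) and Ctsl, cathepsin L, by 1.06 (SE 0.25). Of the muscle ubiquitin ligases, Trim63 was higher by 0.67 (SE 0.18), and Fbxo32 was at 0.67 (SE 0.28), not called. The adjusted calls of Sqstm1 and Gabarapl1 were lost in 6 and 8 of 10 omissions. Of 9 measured stefins and cystatins, the inhibitors of such cathepsins, 0 were called in either fit (limma), and Stfa2 was at 0.54 (SE 0.26) with the covariate.

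Glucocorticoid-responsive genes had 10 of 23 members higher with the array SD (median 0.48) and 1, Mt2, without (median 0.16). The shares over all clusters were 3.12% and 1.28%. Beside the metallothioneins, Lcn2 and Ptgds, which this list shares with others, they included Nfkbia (0.70, SE 0.14), the inhibitor of NF-kappaB, Sgk1 (0.81, SE 0.20), a kinase that regulates sodium channels, Ddit4 (0.65, SE 0.19), an inhibitor of mTORC1, and Pdk4 (1.74, SE 0.58), which holds back pyruvate oxidation. Ddit4 was at 6.63 to 6.93 in sham and at 6.79 to 7.88 in FA-DOXO, above all sham mice in 4 of 6. Without FA-DOXO mouse 5, 7 of the 23 were higher, and without sham mouse 4, 11.

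Of 32 p53 targets and DNA damage genes, 1, Ddb2 of the ultraviolet damage complex, was called without the covariate (0.26, list median 0.01). With it, 8 were higher and 1 lower (median 0.12), beside 3.12% and 0.432% of all clusters. Trp53inp1, which promotes p53 signalling and autophagy, was higher by 0.85 (SE 0.20), Sesn1, an inhibitor of mTORC1, by 0.70 (SE 0.20), and Fas, the death receptor, by 0.54 (SE 0.14). Fas was at 6.34, 6.73, 6.87 and 6.10 in sham and at 6.18 to 7.52 in FA-DOXO, where mouse 5 alone exceeded all sham mice. Chek2, a checkpoint kinase, was lower by 0.45 (SE 0.14). It was at 6.44 to 6.61 in sham and 6.01 to 6.44 in FA-DOXO, below all sham mice in 5 of 6. Of 31 cell cycle genes, Cdk1, the mitotic kinase, and Ube2c, a ubiquitin-conjugating enzyme of cyclin destruction, were lower with the array SD by 0.45 (SE 0.12) and 0.36 (SE 0.10). Without it 0 were called (limma), and 24 of the 31 lay above 0 (median 0.12). Both genes overlapped with sham near the array medians. Cdk1 was at 6.34 to 6.69 in sham and 5.92 to 6.71 in FA-DOXO, and Ube2c at 6.39 to 6.77 and 6.03 to 6.82. The lowest FA-DOXO values were those of the wide arrays of mice 5 and 6. Without FA-DOXO mouse 5, 5 p53 and damage genes were higher.

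MHC class II molecules present antigen to helper T cells. Of 10 genes, 5 were lower without the covariate and 5 with it, 4 of them shared (Cd74 was called only without it, and H2-Ob, at -0.25, only with it). H2-Aa, an alpha chain, was at 9.07, 9.27, 9.29 and 6.37 in sham and at 6.14 to 7.12 with a median of 6.16 in FA-DOXO. The 3 wide sham arrays lay above every FA-DOXO mouse, and sham mouse 4 lay among the FA-DOXO mice. H2-Aa was lower by 2.16 (SE 0.47) without and by 1.81 (SE 0.45, limma adjusted p = 0.118) with the covariate, a 3.50-fold difference. H2-Ab1, its beta chain, was lower by 1.73 (SE 0.34) and 1.45 (SE 0.33), H2-Eb1 by 0.83 (SE 0.18) and 0.85 (SE 0.19), and H2-DMa, which helps to load peptides, by 0.37 and 0.41, with all 6 FA-DOXO mice below all sham mice. Cd74, the invariant chain, was lower by 1.35 (SE 0.39) without the covariate and at -1.08 (SE 0.39) with it. On wide arrays H2-Aa was at -2.57 and on narrow ones, with 1 sham mouse, at -0.19, and for H2-Ab1 the values were -2.11 and -0.23. H2-Aa, H2-Ab1 and H2-Eb1 kept their unadjusted calls in both fits when any mouse was left out. With the covariate, 3 class II genes were lower without FA-DOXO mouse 5 and 7 without sham mouse 4. Cxcl9, an interferon-induced chemokine that attracts T cells, was at 8.53, 8.03, 8.54 and 7.27 in sham and 7.02 to 7.30 in FA-DOXO, and was lower by 0.96 (SE 0.22) and 0.95 (SE 0.23, limma adjusted p = 0.102). It was the only 1 of 33 interferon-stimulated and antigen-processing genes called in either fit. T and NK cell markers (15) and B cell markers (10) had 0 calls in either fit (limma), with mean signals of 5.61 to 6.42 and 5.97 to 6.73 in sham, near or below the array medians.

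Of 18 neutrophil markers, 6 were higher in each fit, 4 of them shared, and 0 were lower. The median member was at 0.47 without and 0.30 with the covariate, against 0.14 and 0.05 for all clusters. S100a8, a calgranulin of neutrophil cytosol, was at 5.88, 5.25, 5.62 and 6.27 in sham and at 6.58 to 7.45 with a median of 7.01 in FA-DOXO, with no overlap. It was higher by 1.23 (SE 0.31) and 1.28 (SE 0.34, limma adjusted p = 0.142), a 2.42-fold difference, and kept its unadjusted call when any mouse was left out. Its partner S100a9 was higher by 0.69 and 0.63, Mmp8, the neutrophil collagenase, by 0.53 and 0.51, and Chil1, a chitinase-like protein, by 0.60 and 0.38. Retnlg, resistin-like gamma, was above all sham mice in all 6 FA-DOXO mice, and was at 0.75 without and higher by 1.08 (SE 0.26) with the covariate. In sham it was at 6.26 to 6.29 on the wide arrays and at 6.68 on the narrow one. The sham arrays thus do not show the rise with array SD that this larger difference assumes. The mean signal of the 18 markers was 5.66 to 6.41 in sham and 6.34 to 6.68 in FA-DOXO, near the array medians. The count ranged from 1 without sham mouse 2 to 13 without sham mouse 4 when no covariate was used, and from 3 to 11 without the same mice when it was. With no covariate, it was 3 after quantile normalization or scaling to an SD of 1, and with median centring 2. Of 19 macrophage markers, Lgals3, galectin-3, was higher in both fits (0.46 and 0.48, SE 0.13 in each), in all 6 mice, and C1qa (0.48), Lyve1 (0.46) and Cd68 (0.37) with the array SD. Without the covariate C1qa, Lyve1 and Cd68 were at 0.05, -0.16 and 0.05 and not called. The median macrophage marker was at 0.05 without and 0.21 with it.

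**Figure D3:**
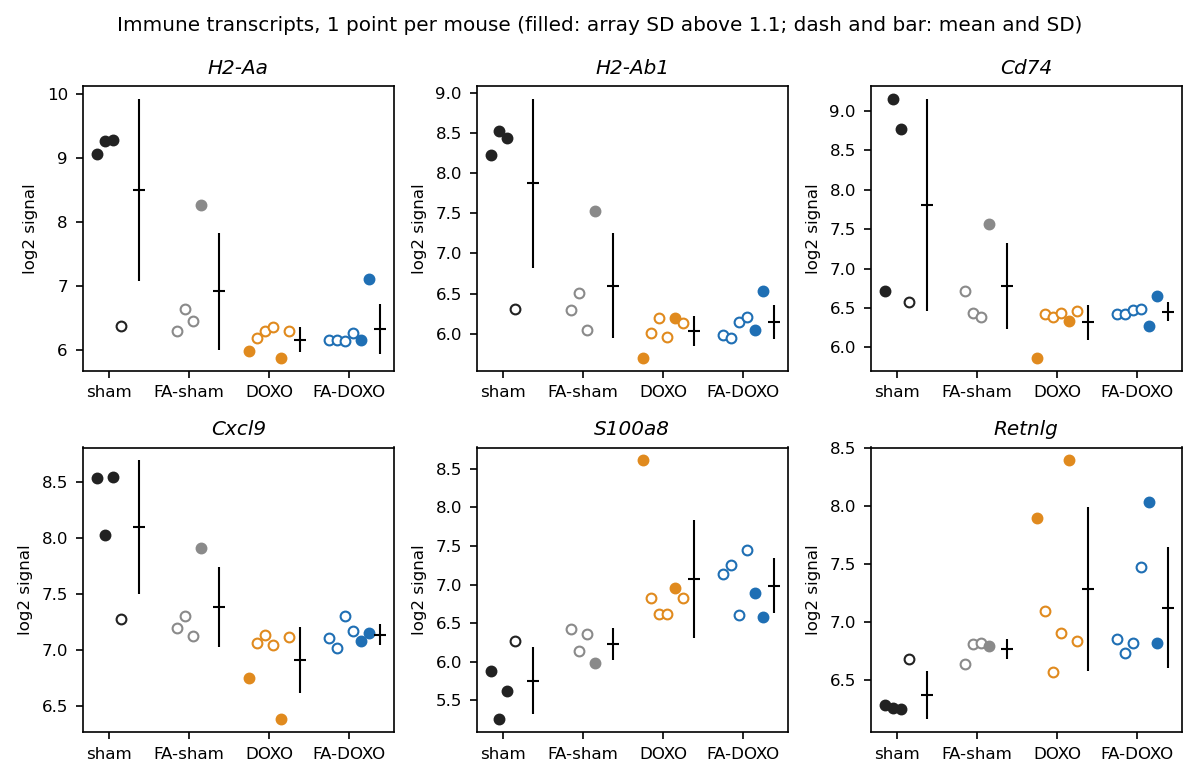
Log2 signal of H2-Aa, H2-Ab1, Cd74, Cxcl9, S100a8 and Retnlg in each mouse of the 4 groups, where wide arrays are filled and narrow ones open, and the group mean ± SD beside them. For H2-Aa, H2-Ab1 and Cxcl9 the 3 wide sham arrays stood above every FA-DOXO array and sham mouse 4 did not, and S100a8 and Retnlg were higher in every FA-DOXO mouse than in every sham mouse.

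Other genes lower in both fits were Nrep, a neuronal regeneration protein, Pla2g5, a secreted phospholipase A2, and Fgf16, a heart-expressed growth factor. Nrep was at 8.51, 9.28, 9.21 and 7.48 in sham and 7.18 to 7.40 in FA-DOXO, without overlap, and was lower by 1.32 (SE 0.27) and 1.20 (SE 0.28). Pla2g5 was lower by 1.77 (SE 0.44) and 1.20 (SE 0.32), and Fgf16 by 1.27 (SE 0.36) and 0.79 (SE 0.24). FA-DOXO mice 5 and 6, with wide arrays, had Pla2g5 signals of 7.63 and 7.95 against 9.45, 9.89 and 9.62 on the wide sham arrays. Of 36 matrix and fibrosis genes, 3 were higher with the array SD, beside 3.12% of all clusters. Ccn2, a matricellular growth factor (1.49, SE 0.41), and Timp1, a metalloproteinase inhibitor (1.24, SE 0.37), were called only there. Mmp3, stromelysin, was higher in both fits (0.59 and 0.65). In sham Mmp3 was at 5.90, 5.67 and 5.87 on the wide arrays and at 6.43 on the narrow one. On narrow arrays its difference was 0.08. Its call was lost in 6 of 10 omissions without the covariate and in 4 with it. Without FA-DOXO mouse 5, 1 of the 36 was higher with the covariate. Timp1 was at 5.97 to 6.24 in sham and exceeded that range in 5 of 6 FA-DOXO mice. Of 10 fibroblast and 15 endothelial markers, 0 were called in either fit (limma).

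The 35 complex I genes all lay below sham without the covariate (median -1.21) and were at a median of -0.14 with it, and 0 were called in either fit (limma). Of 40 genes of complexes II to V, Cox7a1, the heart isoform of a cytochrome c oxidase subunit, was lower by 1.54 (SE 0.49) without the covariate and at -0.90 (SE 0.35) with it. Fatty acid oxidation and PPAR targets had 5 of 38 higher with the array SD (median 0.45) and 0 without (median -0.71), Acadl, the long-chain acyl-CoA dehydrogenase, by 1.06 (SE 0.34). Without FA-DOXO mouse 4, 0 of the 38 were called higher in limma, and Acadl lost its call in 6 of 10 omissions. Of 35 glycolysis and TCA cycle genes, 0 were called (limma). Of 23 genes of nitric oxide and tetrahydrobiopterin synthesis, 0 were called in either fit (limma). Nos3, the endothelial synthase, was at 6.51, 7.72, 7.30 and 6.98 in sham and 6.80 to 7.26 in FA-DOXO, a difference of -0.17 (SE 0.26) without and 0.11 (SE 0.21) with the covariate. Nos1 and Nos2 were at 0.09 (SE 0.08) and -0.14 (SE 0.11) with it. The 12 NADPH oxidase and 32 folate, one-carbon and methionine genes had 0 calls in either fit (limma), the latter with medians of 0.06 and 0.05. Of 17 clock genes, Dbp, a clock output factor, was lower by 1.31 (SE 0.43) without the covariate, and Arntl, the clock activator, was higher by 0.47 (SE 0.14) with it. Herpud1, a protein of endoplasmic reticulum stress, was higher by 0.81 (SE 0.20) with the covariate. It was 1 of 2 calls among 29 heat shock and stress genes, beside 3.12% of all clusters. That count was 1 without FA-DOXO mouse 5 and 6 without sham mouse 4.

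**Figure D4:**
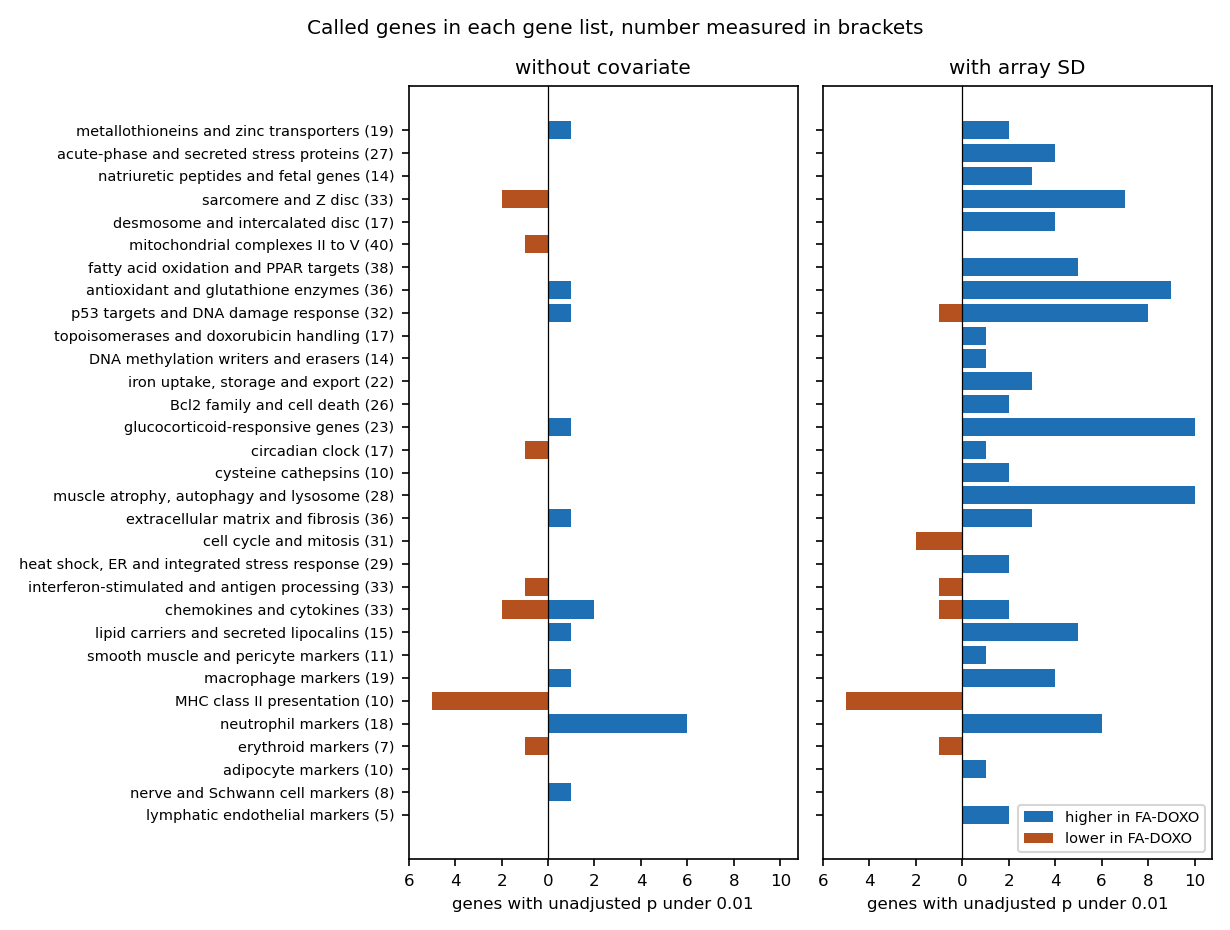
Number of genes with an unadjusted p under 0.01 in each gene list with at least 1 call, higher in FA-DOXO to the right and lower to the left, without the covariate (left panel) and with the array SD (right panel), and with the number of genes measured in brackets. MHC class II is the list with the most lower genes in both panels, and neutrophil markers the one with the most higher genes without the covariate.

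The groups with only 1 of the treatments place these differences. With the array SD, 1440 clusters (4.14%) were called between DOXO and sham mice, which share the sham arrays with the comparison above, 386 (1.11%) between FA-DOXO and DOXO, and 371 (1.07%) between FA-DOXO and FA-sham. None of the 34760 clusters passed the adjusted threshold between FA-DOXO and DOXO in limma, 2038 had an unadjusted p under 0.05, and without the covariate the counts were 0 and 455. Against sham, Mt2 was at 3.42 (SE 0.47) in DOXO mice beside 3.31 in FA-DOXO mice, and FA-DOXO minus DOXO was -0.11 (SE 0.41). Myh7 was at 2.92 beside 3.27, with 0.35 (SE 0.48) between them. Lcn2 was at 2.97 beside 2.65, with -0.32 (SE 0.50) between them, and Serpina3n at 2.84 beside 2.28, with -0.56 (SE 0.46). For Glul, Clu and Nqo1, FA-DOXO minus DOXO was 0.10 (SE 0.18), 0.00 (SE 0.18) and 0.06 (SE 0.24). For H2-Aa it was 0.31 (SE 0.38), for S100a8 -0.07 (SE 0.28) and for the first beta-globin cluster 0.19 (SE 0.48). Pkp2 was past the unadjusted threshold there, higher in FA-DOXO than in DOXO by 0.34 (SE 0.11, limma adjusted p = 0.839).

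The comparison with FA-sham mice shares the FA-DOXO arrays with that against sham. There Mt2 was higher by 3.01 (SE 0.46, limma adjusted p = 0.0285) and the first beta-globin cluster fell by 3.36 (SE 0.53, limma adjusted p = 0.0343). Myh7, at 1.64 (SE 0.54), was past the unadjusted threshold, as were Sqstm1 (0.72, SE 0.25) and Gabarapl1 (0.58, SE 0.20). Pdk4 (1.83, SE 0.54) was too. Glul (0.39, SE 0.20), Clu (0.31, SE 0.20), Cdh2 (0.19, SE 0.11), H2-Aa (-0.71, SE 0.43), Cxcl9 (-0.25, SE 0.22), S100a8 (0.74, SE 0.32) and Lcn2 (1.14, SE 0.56) were not. FA-sham minus sham, which shares the sham arrays, had 635 of 34760 clusters called with the array SD and 1512 without. None passed the adjusted threshold in either fit (limma), and 2755 had an unadjusted p under 0.05 with the array SD. Of the 46 adjusted calls of FA-DOXO against sham, 43 lay above 0 there with the array SD. In that fit the median cluster was at 0.07 and 575 of the 635 calls were higher. The same sham arrays also chose the 46, so the count is a description only. Glul (1.15, SE 0.24), Clu (1.13, SE 0.25), Cdh2 (0.67, SE 0.14) and Ephx1 (0.70, SE 0.16) were past the unadjusted threshold, and Mt2 (0.30, SE 0.55) was not. Of the genes lower in FA-DOXO, H2-Aa (-1.10, SE 0.52), H2-Ab1 (-0.90, SE 0.37) and Cxcl9 (-0.70, SE 0.26) were not past it with the array SD. Without the covariate these 3 were at -1.58, -1.28 and -0.71 and past it. They thus lay below sham in FA-sham mice too, which received no DOXO. All 4 groups share 1 slope and 1 error estimate in these fits.

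**Figure D5:**
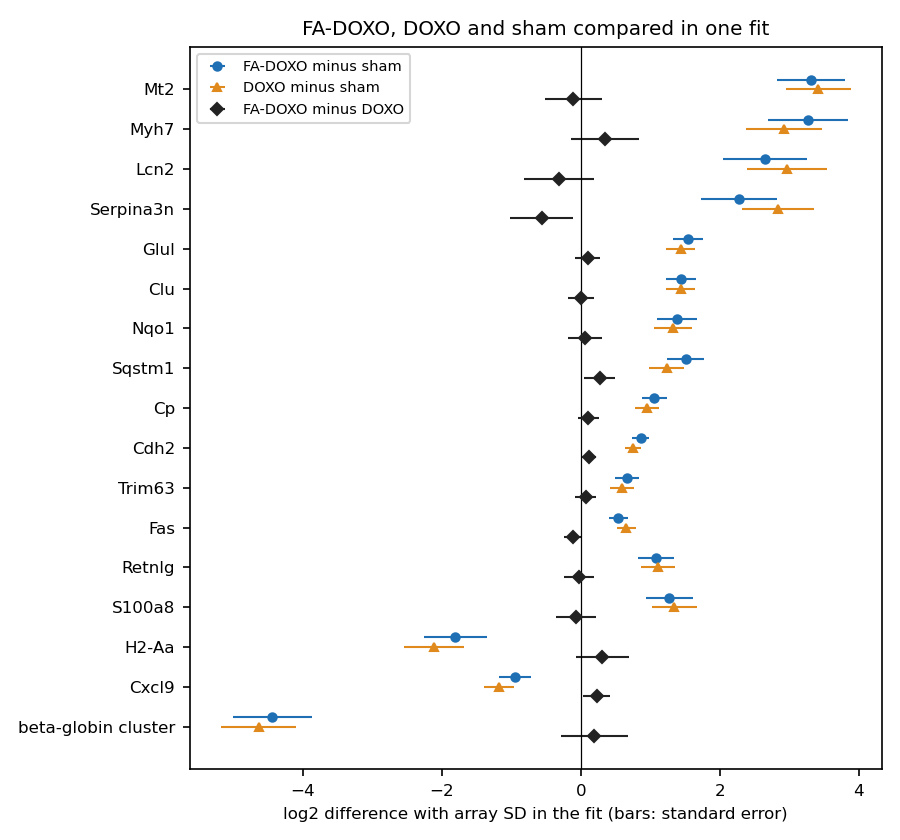
Log2 differences with the array SD in the fit for named genes and the first beta-globin cluster, FA-DOXO minus sham (blue circles), DOXO minus sham (orange triangles) and FA-DOXO minus DOXO (black diamonds), with bars for the standard error. Both differences against sham, which share the sham arrays, lay on the same side of 0 for every gene shown, and FA-DOXO minus DOXO ran from -0.56 for Serpina3n to 0.35 for Myh7.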

How the data were processed

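Left ventricle RNA of 20 mice was hybridised to 1 whole-transcript expression array each. The authors deposited 1 log2 value per transcript cluster and array, made with R 2.14.2 and Bioconductor per the submitters' processing notes, but how background was corrected and values normalized and summarized is not given in the sources used here. No scanner intensities were used, so depth in reads does not apply, and the number of arrays limits the precision. Symbols are those of the platform's annotation, where 21553 gene IDs matched RefSeq (GRCm38.p6).

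Groups were taken from the sample labels. Each cluster was fitted with limma 3.58.1 (R 4.3.3) over all 20 arrays in 4 groups, without a covariate and with the SD of each array's values as a covariate, at an unadjusted p of 0.01, as in the study, and a Benjamini-Hochberg adjusted p of 0.05 over 34760 clusters. The fits were tested on simulated data. Array SDs were compared by an exact permutation test over 210 splits. The comparison and its gene lists were chosen with earlier results of these data known. Named genes were the 15 clusters with 1 symbol and the largest called difference in each direction and fit, genes the study names, and up to 4 members of each of 45 lists with the smallest p. Genes named outside this rule were chosen after their values were seen. Alternatives changed the filter, scaling, moderation, covariate, samples and replicate block. Figures were drawn with matplotlib 3.10.9.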

Additional observations from a re-analysis of the deposited data

Results flagged for a closer look

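Among 180 sets of 1 named gene in the sham or the FA-DOXO mice, 15 held a mouse whose gap to its nearest neighbour took up more of the group's range than Dixon's 95% value allows, and chance flags about 1 in 20 groups. Sham mouse 4, the sham mouse with a narrow array, stood apart in 6 of them. Its log2 signal was 7.22 for Mt2 (next 9.10), 6.37 for H2-Aa (next 9.07), 6.30 for H2-Ab1 (next 8.22), 8.97 for Nppa (next 10.80), 9.86 for the first beta-globin cluster (next 11.96) and 6.68 for Retnlg, above the next mouse at 6.29. Sham mouse 1 had 6.63 for Ddit4 (next 6.88).

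FA-DOXO mouse 5, with the widest FA-DOXO array, stood apart in 6. It was the highest for Pdk4 at 12.47 (next 9.68), Ddit4 at 7.88 (next 7.11), Fas at 7.52 (next 6.61), Cd68 at 7.89 (next 7.10) and Arntl at 7.08 (next 6.64), and the lowest for H2-Eb1 at 6.80 (next 7.18). FA-DOXO mouse 6, also with a wide array, was the highest for H2-Aa at 7.12 (next 6.28) and for Mylk4 at 7.59 (next 6.74). The part of the array spread in these gaps was not tested.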

How the results depend on the processing

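Without the covariate, 605 clusters were called as deposited and 1 after adjustment. The unadjusted count was 200 with a filter at the median cluster mean, 399 with one at the 20th percentile, 315 over clusters with 1 symbol, 136 with sham and FA-sham merged, 63 at a minimum log2 difference of 0.25, 115 on the wide and 267 on the narrow arrays alone, and 1235 with the array SD. The adjusted count was 0 over clusters with 1 symbol and on the narrow arrays alone, 2 on the 10 FA-DOXO and sham arrays alone and with the kind of array, wide or narrow, as a block, 3 with merged shams and 46 with the array SD. Leaving out 1 mouse gave 163 (sham 2) to 5234 (sham 4) unadjusted and 1 to 64 (sham 4) adjusted calls, with 363, 326, 313, 334 and 1278 without FA-DOXO 1 to 5 and 186 without sham 3.

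With the array SD, the unadjusted count of 1235 became 777 with the median filter, 657 with merged shams and 206 at the minimum difference. The adjusted count of 46 became 72 with the median filter, 29 with median centring, 14 without moderation, 81 with array weights, 3 on the 10 arrays alone, 15 with merged shams, 1 at the minimum difference, 7 with the interquartile range as the covariate, 1 with the SD over the lower-signal clusters and 23 with a slope per group. Leaving out 1 mouse gave 743 (FA-DOXO 5) to 1947 (sham 4) unadjusted and 8 (FA-DOXO 5) to 446 (sham 4) adjusted calls, with 20 and 12 without FA-DOXO 4 and 6, and 21, 12 and 18 without sham 1, 2 and 3. Higher calls made up 87.9% with the array SD, 59.4% after median centring and 63.5% with the SD over the lower-signal clusters. Array weights without the covariate did not converge and gave no value. The difference in array SD ran from -0.150 (without sham 2) to -0.337 (without sham 4) and was -0.373 for the interquartile range.

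The deviations of same-numbered sham and FA-DOXO mice from their group means had r = 0.51, -0.70, -0.70 and 0.68 for numbers 1 to 4. Sham mouse 1 matched FA-DOXO mouse 1 best, and sham mice 2 and 3, with wide arrays, matched FA-DOXO mouse 5, also wide. Array spread and a pairing cannot be told apart here, and no label pairs the mice. The replicate numbers were therefore not taken to pair them. A replicate block gave 1717 unadjusted and 0 adjusted calls without the covariate, and 801 and 9 with the array SD.

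With the SD over the lower-signal clusters as the covariate, differences that were above 0 with the array SD were -0.99 for Des, -0.30 for Myot, -1.20 for Actn2, -0.39 for Myom2, -0.59 for Ankrd1, -0.49 for Corin, -1.03 for Cdh2, -0.51 for Pkp2, -0.69 for Nrap, -0.32 for Glul, -0.22 for Clu, -0.28 for Ephx1, -0.47 for Cp, -0.14 for Nqo1, -0.24 for Gclm, -0.22 for Gstm2, -0.86 for Cat, -0.31 for Gpx3, -0.44 for Sqstm1, -0.38 for Gabarapl1, -0.42 for Map1lc3b, -0.55 for Ctsl, -0.23 for Bnip3, -0.76 for Trim63, -0.044 for Nfkbia, -0.016 for Sgk1, -0.0055 for Fas, -0.95 for Sesn1, -0.94 for Acadl, -0.20 for Lyve1, -0.62 for Herpud1 and -0.51 for the second Glul cluster. All of these but Fas also lay below 0 without any covariate. No other named gene that was called changed sign under the alternatives run within its own fit. Of those not called with the array SD, Nos3, Myh6, Actc1 and Acta1 did under some alternatives, Nos3 between -0.083 and 0.25, Myh6 between -0.19 and 0.24 and Actc1 between -0.29 and 0.34 on leaving out 1 mouse, and so did Fbxo32, Adam4, Nppa and Nppb with the SD over the lower-signal clusters. The cause was not tested. The depth of signal over background is not known from these values. Adjusted calls with the array SD that were lost on leaving out any of 5 or more of the 10 mice were those of Myh7, Gstm2, Sqstm1 and Gabarapl1. Unadjusted calls so lost were those of Ankrd1, Pdk4, Acadl and Chil1 with the array SD, and of Mt2, Lmod3, H2-DMa, Dbp, Cox7a1 and Mmp3 without it.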
